A study of Mus musculus with 10 samples.

Results

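The miRNAs described here are 7 mature miRNAs with levels far below the wild type in a knock-out of Dicer or DGCR8, followed across 10 small RNA libraries of mouse embryonic cortex. They are miR-3093-5p, miR-3093-3p, miR-3081-3p, miR-3085-3p, miR-330-3p, miR-670-3p and miR-193a-3p, 7 of the 1432 mature names in the deposited table. They hold 176 of its 19414 entries, each entry being a mature name with the bases added at its 3′ end. The 7 were picked as little-studied miRNAs, by how far their levels lay below the wild type in a knock-out. Their knock-out values are therefore given as a description, without a test. In a library the 7 together had from 121 to 1520 reads.

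A primary miRNA transcript folds into a hairpin, which the nuclear complex of Drosha and DGCR8 cuts free and which Dicer then cuts into a short duplex. One strand of the duplex is kept by an Argonaute protein, and the 5p and 3p names say from which side of the hairpin it came. The kept strand finds its target mRNAs mainly through its seed, bases 2 to 8 from the 5′ end. In the developing cortex, miRNAs take part in the survival of progenitors and the differentiation of neurons. Hairpins that lie in 1 transcript can be made together.

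The tissue was cortex of mouse embryos at stage E13.5. There were 2 mouse lines and 5 groups, each with 2 libraries. The Dicer line gave wild types, called Dicer WT, and knock-outs, called Dicer KO. The DGCR8 line gave wild types (DGCR8 WT), knock-outs (DGCR8 KO) and heterozygotes for the deletion (DGCR8 HET). The design text calls both knock-outs conditional, but no source used here names the driver of the deletion or the cells it reaches. The table holds no mRNA, so the deletions themselves could not be checked.

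The mature sequences from RefSeq (build GRCm38.p6) are shown first because the seeds set the members apart from each other. They run 5′ to 3′, with the seed in capitals.
miR-3093-5p: cGCACCCCgcggagcucacacu
miR-3093-3p: uGUGGACAccgugggagguugg
miR-3081-3p: uUGCGCUCcgaucucugagcugg
miR-3085-3p: uCUGGCUGcuauggcccccuc
miR-330-3p: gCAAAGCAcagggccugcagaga
miR-670-3p: uUUCCUCAuauccauucaggagugu
miR-193a-3p: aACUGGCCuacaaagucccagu
All 7 members were found in the RefSeq table, and each of the 7 seeds differs from the other 6. Of the other miRNAs in the deposited table that have a RefSeq sequence, 2 share a seed with a member. These are miR-193b-3p, the paralog of miR-193a-3p with 592 reads in all libraries, and miR-3064-5p, with the seed of miR-3085-3p and 32 reads.

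The members come from 6 hairpins on 6 chromosomes, placed here in GRCm38 with the GENCODE M21 annotation. Mir3093, at chr3:88215171-88215257 on the plus strand, lies in an intron of the long noncoding gene Gm3764, and 340 bases separate it from Mir9-1 on the same strand. Mir9-1 is one of the genes that encode miR-9, an abundant miRNA of neural progenitors. Both arms of Mir3093 are members, so its whole hairpin is shown, with the 5p and then the 3p strand in capitals.
Mir3093 hairpin: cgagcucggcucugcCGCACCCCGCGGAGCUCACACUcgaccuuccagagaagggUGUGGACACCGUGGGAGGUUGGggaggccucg
Mir3081, at chr16:44558046-44558129 on the minus strand, lies in an intron of Boc, 768 bases from the 5′ end of that gene. Boc encodes a co-receptor for Sonic hedgehog. Mir330, at chr7:19181465-19181562 on the plus strand, lies within Eml2, a gene for a microtubule-associated protein, and overlaps exon 1 of 1 of its annotated transcripts. Mir670, at chr2:94261300-94261399 on the minus strand, overlaps exon 2 of a transcript of its host gene Mir670hg. Mir193a, at chr11:79711969-79712034 on the plus strand, and Mir3085, at chr19:42280082-42280170 on the minus strand, overlap no other annotated gene. Mir365-2 follows Mir193a on the same strand after 14365 bases, and the nearest protein-coding gene to Mir3085 is Crtac1, 2864 bases away.

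The shallowest library, a Dicer KO one, had 800623 reads assigned to miRNAs and the deepest, a Dicer WT one, had 4486774. Levels below are CPM, read counts scaled to a common library size by TMM (trimmed mean of M values), so a level is relative to the other miRNAs of its library. All 7 members were among the 557 miRNAs that passed a filter on low counts. All 5 cortical miRNAs followed as tissue markers were present in every library. They took from 20.4% to 24.1% of reads in the wild types and HET. The share was 12.1% to 13.6% in Dicer KO and 14.9% and 15.03% in DGCR8 KO. Their summed level was 211917 to 283513 CPM in the wild types and HET. It was 117529 and 132973 CPM in Dicer KO and 116336 and 122973 CPM in DGCR8 KO. All 8 vessel and blood miRNAs followed were present in every library, with a summed level of 11593 to 13808 CPM in Dicer WT and 31933 to 36836 CPM in Dicer KO. Their summed level was 6105 and 6464 CPM in DGCR8 WT, 5996 and 10114.5 CPM in DGCR8 HET and 8015 and 7619 CPM in DGCR8 KO. The choroid plexus and epithelium list, with reads for 8 or all of its 9 miRNAs in each library, summed to 3651 and 10709 CPM in Dicer WT, to 7593 and 19510 CPM in Dicer KO and to 1045 to 5956 CPM in the DGCR8 line. The mesenchyme list, with reads for 2 of 3 miRNAs, summed to 222.9 and 333.5 CPM in Dicer WT, to 561.8 and 949.3 CPM in Dicer KO and to 4.77 to 139.9 CPM in the DGCR8 line. The 4 miRNAs of regions behind the forebrain summed to 34.5 and 61.7 CPM in Dicer WT, to 135.4 and 209.5 CPM in Dicer KO and to 5.56 to 35.7 CPM in the DGCR8 line. In the vessel and blood, choroid plexus, mesenchyme and behind-forebrain lists, DGCR8 HET replicate 2 had the highest value of the DGCR8 line. The 3 muscle miRNAs summed to less than 60 CPM in every library, with miR-1a-3p, miR-206-3p or both at 0 in 8 of the 10. The markers are miRNAs themselves, and whether their differences reflect the tissue taken was not tested. The part of these differences in the members' levels was not tested either. In bulk tissue, fewer cells of a type and less RNA per cell cannot be told apart.

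In Dicer KO, 6 of the 7 members lay more than 2-fold below Dicer WT, and miR-193a-3p did not. The lowest fitted fold change belonged to miR-3093-5p, from the hairpin next to Mir9-1. Over all 557 miRNAs 14% lay more than 2-fold lower. The median log2 fold change was −2.51 for the members, which were chosen for it, and −0.00984 for all miRNAs. Groups did not overlap for the same 6 members, and 33.6% of all miRNAs had Dicer KO libraries below both Dicer WT libraries.

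miR-3093-5p was the more abundant strand of its hairpin. It had 375 and 325 reads in the Dicer WT libraries, or 104.6 and 85.0 CPM, against 13 and 3 reads in Dicer KO, or 13.0 and 3.63 CPM. Both Dicer KO libraries were far below both wild types. The log2 fold change was −3.46 ± 0.40 (SE, n = 2 libraries a group), a fold of 10.98 downward and the lowest of the 557. Counting error alone gave Dicer KO replicate 2 an exact 95% Poisson interval of 0.748 to 10.6 CPM. Leaving out Dicer KO replicate 1 gave −4.77 and leaving out Dicer KO replicate 2 gave −2.92.

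miR-3093-3p, the other strand of that hairpin, was the rarest member. It had 47 and 51 reads in Dicer WT, or 13.1 and 13.3 CPM, against 3 and 0 reads in Dicer KO. The library with no read allows up to 3.63 CPM at 3 counts, which is below both wild types. The fitted log2 fold change was −2.98 ± 0.62, the second lowest of the 557, but within its SE of other miRNAs. Without Dicer KO replicate 1 it was −7.93, which is no bound since the group is then at 0, and without Dicer KO replicate 2, the library with no read, it was −2.18.

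miR-330-3p, from the Eml2 locus, stood at 31.3 and 34.5 CPM in Dicer WT and at 5.99 and 4.84 CPM in Dicer KO, where it had 6 and 4 reads. The 2 libraries of each genotype were close together and far from the other genotype. The log2 fold change was −2.58 ± 0.30, a fold of 5.98 downward, and −3.34 over entries without an added 3′ base. miR-3081-3p, from the Boc intron, stood at 32.9 and 24.1 CPM in Dicer WT and at 3.99 and 6.05 CPM in Dicer KO, from 4 and 5 reads. Its log2 fold change was −2.51 ± 0.38. The order of these neighbours by fold change cannot be read, since they differ by less than their SE.

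miR-670-3p, from the Mir670hg exon, stood at 24.3 and 19.9 CPM in Dicer WT and at 6.98 and 1.21 CPM in Dicer KO, from 7 reads and 1 read. The Dicer KO libraries were both lower, on very few reads. Its log2 fold change was −2.34 ± 0.52, and leaving out the first or the second Dicer KO library gave −4.21 or −1.71. miR-3085-3p, the most abundant member in the wild types, stood at 107.4 and 138.9 CPM in Dicer WT and at 28.9 and 26.6 CPM in Dicer KO. Its Dicer KO values rest on 29 and 22 reads and lie close together, and its log2 fold change was −2.14 ± 0.22, the smallest SE among the members.

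miR-193a-3p did not lie below the wild type in Dicer KO. It had 136 and 313 reads in Dicer WT, or 37.9 and 81.9 CPM, and 81 and 86 reads in Dicer KO, or 80.8 and 104.0 CPM. The groups overlap, and the wild types differed from each other by more than 2-fold. The log2 fold change was 0.62 ± 0.43. It was 0.18 without Dicer WT replicate 1 and 1.27 without Dicer WT replicate 2, so its size rested on which wild type was used.

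**Figure D1:**
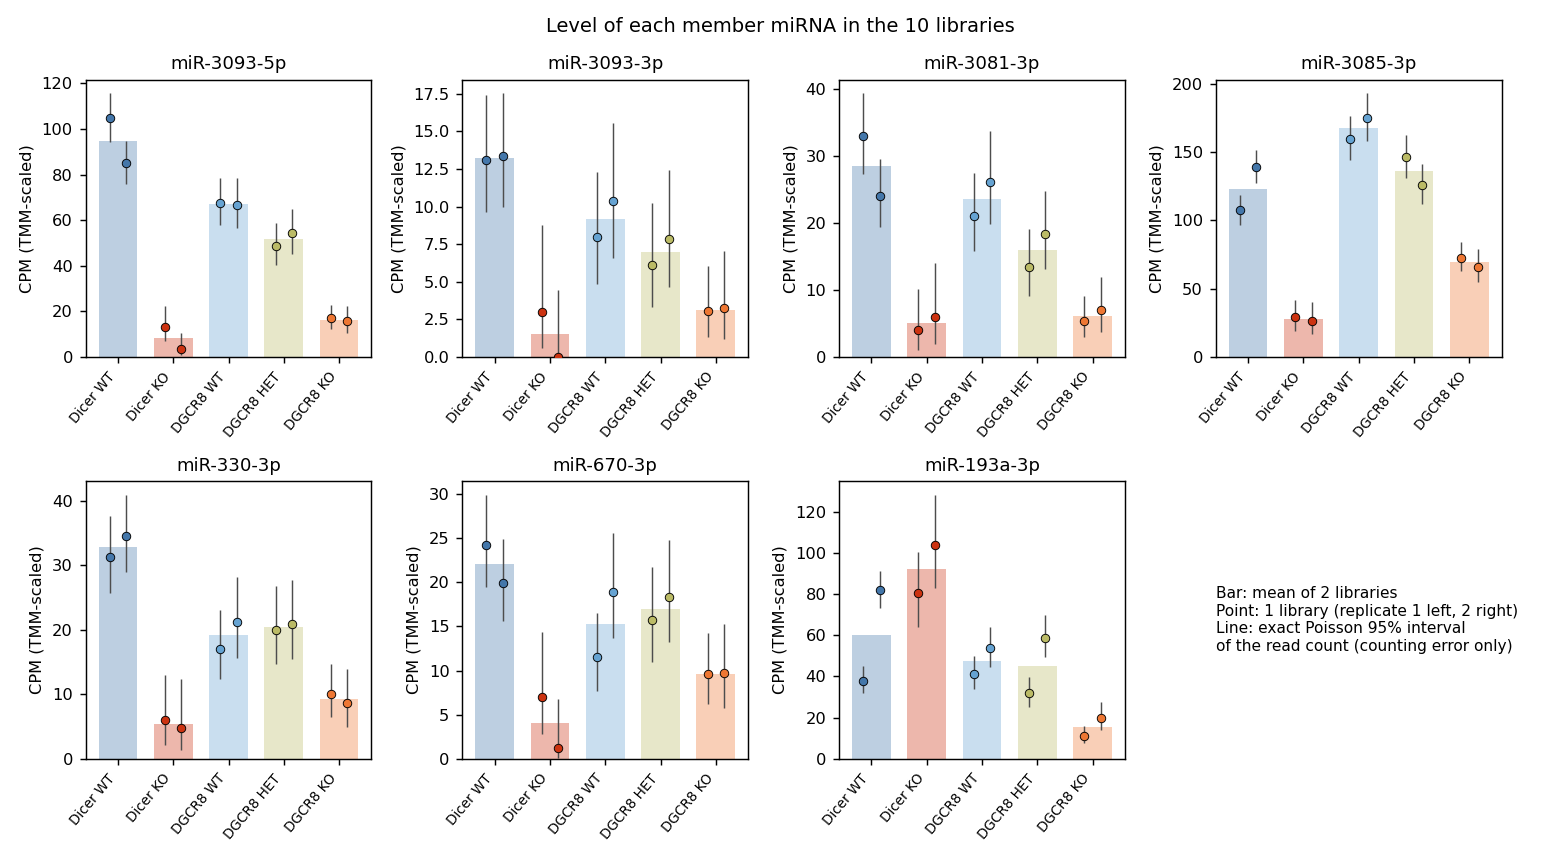
TMM-scaled CPM (vertical axes, from 0) of the 7 members in the 5 groups. Points are libraries, bars are means of 2 libraries and lines are exact 95% Poisson intervals of the read counts. In it, 6 members stand lowest in Dicer KO, and miR-193a-3p stands lowest in DGCR8 KO, at 11.2 and 19.9 CPM.

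In DGCR8 KO all 7 members lay below DGCR8 WT, 6 of them by more than 2-fold. The one that did not was miR-670-3p. Over all 557 miRNAs 6.28% lay more than 2-fold lower. The members' median log2 fold change was −1.52, against 0.0167 for all miRNAs, and no member had overlapping groups. Of all miRNAs, 38.2% had both DGCR8 KO libraries below both DGCR8 WT libraries. On library totals in place of TMM, the median of all miRNAs was 0.43. There 4 members lay more than 2-fold lower, against 2.87% of all miRNAs.

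miR-3093-5p was again the lowest member, at 67.6 and 66.8 CPM in DGCR8 WT and 16.9 and 15.6 CPM in DGCR8 KO. The libraries of each genotype nearly coincided, and the log2 fold change was −2.04 ± 0.34, a fold of 4.11 downward. miR-3093-3p went from 7.95 and 10.4 CPM to 3.08 and 3.23 CPM, the latter from 8 and 6 reads (log2 fold change −1.52 ± 0.46). miR-3081-3p went from 21.1 and 26.2 CPM to 5.39 and 6.99 CPM (−1.94 ± 0.32).

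miR-193a-3p, which did not lie below its wild type in Dicer KO, did so here. Its level was 41.3 and 53.7 CPM in DGCR8 WT and 11.2 and 19.9 CPM in DGCR8 KO, with a log2 fold change of −1.63 ± 0.47, a fold of 3.09 downward. It was the 11th lowest of the 557 in this comparison and had the 397th rank in Dicer KO. The knock-outs are set side by side here without a test, since the members were chosen by these values.

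miR-3085-3p stood at 159.8 and 175.0 CPM in DGCR8 WT and at 72.7 and 66.1 CPM in DGCR8 KO (log2 fold change −1.27 ± 0.20). Over entries without an added 3′ base, a small part of its reads, the value was −2.06, and on library totals it was −0.85. miR-330-3p stood at 17.1 and 21.2 CPM against 10.01 and 8.60 CPM (−1.03 ± 0.25, and −0.61 on library totals). miR-670-3p stood at 11.5 and 18.9 CPM against 9.62 and 9.68 CPM (−0.65 ± 0.41), so the lower of its wild types was close to the knock-outs. Its Dicer KO value was −2.34, and the fitted difference between the 2 knock-out effects was 1.69 ± 0.68, given as a description. Without Dicer KO replicate 1, which leaves a library with 1 read, that difference was 3.61.

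**Figure D2:**
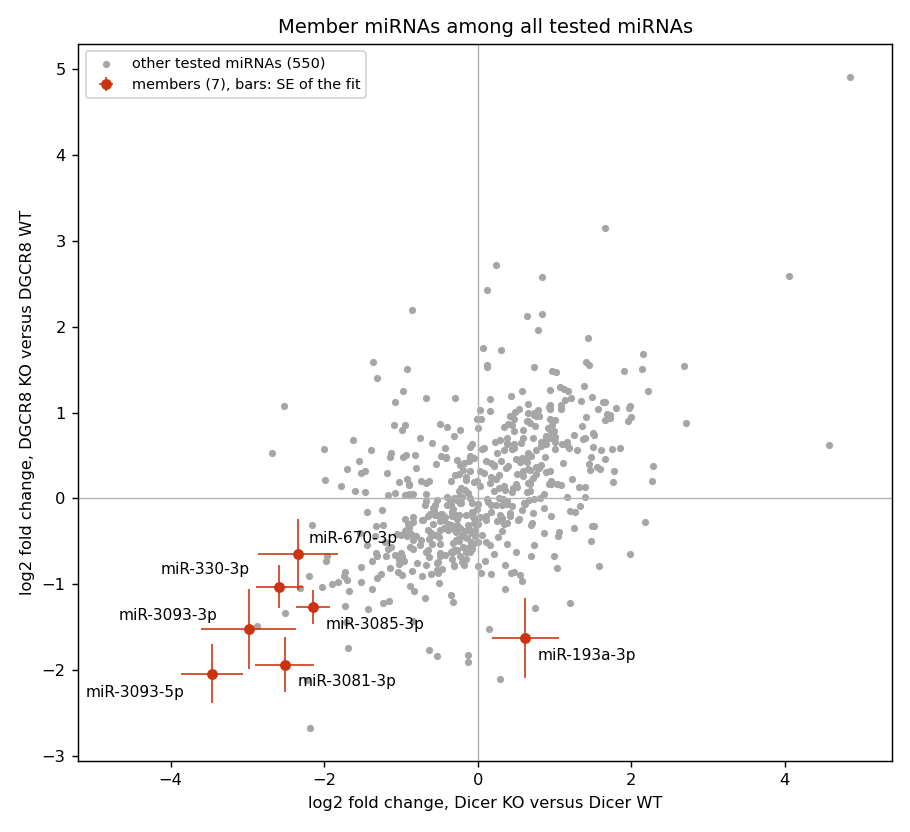
Log2 fold change in Dicer KO (horizontal) against that in DGCR8 KO (vertical) for 557 tested miRNAs, with the 7 members in red and SE bars. The members from 5 hairpins sit at the lower left, while miR-193a-3p sits at 0.62 and −1.63.

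The choice of members set no threshold on the fold change. Non-members stood between them in Dicer KO, among them miR-1251-5p (−2.87), miR-98-3p (−2.50), let-7b-5p (−2.32) and miR-708-5p (−2.23). The lowest values in DGCR8 KO were those of miR-708-3p (−2.68) and miR-708-5p (−2.12). In Dicer KO the members other than miR-193a-3p held ranks 1, 2, 5, 7, 9 and 15 from the lowest, and miR-193a-3p held rank 397. In DGCR8 KO the members held ranks 4, 5, 11, 12, 20, 34 and 95.

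The heterozygote, which keeps 1 copy of DGCR8, was compared with DGCR8 WT, a contrast that the choice of members did not use, although it shares the DGCR8 WT libraries with one that it did. By edgeR's quasi-likelihood test 0 of 7 members were called at an adjusted p below 0.05, and 0% of all 557 miRNAs were. At an unadjusted p below 0.05 the count was 0 of 7 members and 23 of 557 miRNAs, and DESeq2 also called 0 members. No member lay more than 2-fold lower, as 0.359% of all miRNAs did. The members' log2 fold changes ran from −0.57 to 0.16, with 5 of 7 below 0. The largest was that of miR-3081-3p, with 31 and 42 reads in DGCR8 HET against 53 and 58 in DGCR8 WT (−0.57 ± 0.29, edgeR adjusted p = 0.993). miR-3093-5p stood at 48.8 and 54.5 CPM in DGCR8 HET (−0.38 ± 0.32, edgeR adjusted p = 0.993). For 4 members, both arms of Mir3093, miR-3081-3p and miR-3085-3p, the heterozygotes lay below both wild types without overlap, as 21% of all miRNAs did. miR-330-3p was at 20.0 and 20.9 CPM in DGCR8 HET and miR-670-3p at 15.7 and 18.3 CPM, both overlapping the wild types.

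Against DGCR8 HET, all 7 members were lower in DGCR8 KO, and for none did the libraries overlap, as 34.5% of all miRNAs were lower without overlap. Here 5 members lay more than 2-fold lower, against 8.08% of all miRNAs. On library totals 2 members did, against 4.67% of all miRNAs. The exceptions were miR-3085-3p (−0.97 ± 0.20) and miR-670-3p (−0.81 ± 0.41), and the lowest was miR-3093-5p (−1.66 ± 0.34). This contrast shares the DGCR8 KO libraries with the one that chose the members, so it has no test of its own.

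The wild types of the 2 lines gave 0 of 7 member calls with edgeR, against 7.54% of all miRNAs. Both wild types stand in the contrasts that chose the members, so this count is not independent of the choice. Line and any difference in how the lines were handled cannot be told apart. At an unadjusted edgeR p below 0.05 there were 2 of 7 members and 146 of 557 miRNAs. DESeq2 called 0 members and 11.3% of all miRNAs. miR-330-3p was lower in DGCR8 WT (log2 fold change −0.78 ± 0.23) and miR-3085-3p was higher (0.44 ± 0.19), each without overlap. In all, 4 members were lower in DGCR8 WT without overlap, as were 39.7% of all miRNAs. By mean CPM in Dicer WT the order was miR-3085-3p (123.2 ± 22.3, SD, n = 2), miR-3093-5p (94.8 ± 13.9), miR-193a-3p (59.9 ± 31.1), miR-330-3p (32.9 ± 2.32), miR-3081-3p (28.5 ± 6.26), miR-670-3p (22.1 ± 3.10) and miR-3093-3p (13.2 ± 0.163). Of the neighbours in this order, only miR-670-3p and miR-3093-3p differ by more than the sum of their SDs. In DGCR8 WT miR-3085-3p (167.4 ± 10.8) and miR-3093-5p (67.2 ± 0.566) again led.

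The opposite strands of the member hairpins were not among the members, though they share a precursor with one. Of 5 such strands, 4 were in the table and 2 passed the filter. miR-330-5p, the abundant strand of Mir330, fell in Dicer KO from 600.8 and 631.7 CPM to 212.5 and 165.7 CPM (log2 fold change −1.70 ± 0.18, edgeR adjusted p = 2.63e-04). That comparison called 30.9% of all miRNAs. In DGCR8 KO miR-330-5p fell from 546.0 and 577.8 CPM to 309.5 and 270.5 CPM (−0.95 ± 0.17, edgeR adjusted p = 0.0106), where 20.6% of miRNAs were called. On library totals the latter was −0.54 at an edgeR adjusted p of 0.0598, and leaving out DGCR8 WT replicate 1, DGCR8 WT replicate 2, DGCR8 KO replicate 1 or DGCR8 KO replicate 2 ended the call, with adjusted p = 0.0638, 0.139, 0.0786 and 0.0804.

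miR-670-5p stood at 11.2 and 8.63 CPM in Dicer WT and at 5.99 and 1.21 CPM in Dicer KO, from 6 reads and 1 read (log2 fold change −1.37 ± 0.57, edgeR adjusted p = 0.0984). It was called without Dicer KO replicate 1 (−3.05, edgeR adjusted p = 0.0319), and without Dicer KO replicate 2 it was −0.78 (edgeR adjusted p = 0.370). In DGCR8 KO its log2 fold change was −1.06 ± 0.48 (edgeR adjusted p = 0.141). miR-3085-5p had 4 reads in all libraries and miR-193a-5p had 11, too few to fit.

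The share of each strand in the reads of its hairpin was followed over the genotypes. miR-3093-5p made up from 86.4% to 89.5% of Mir3093 reads in the wild-type and HET libraries. It made up 84.6% and 82.9% in DGCR8 KO, with exact Clopper-Pearson 95% intervals of 71.9% to 93.1% and 66.4% to 93.4%. In Dicer KO it had 13 of 16 reads and 3 of 3 reads. miR-330-5p made up 95.1% and 94.8% of Mir330 reads in the Dicer WT libraries, against 97.3% and 97.2% in Dicer KO, and in the DGCR8 line it ran from 96.0% to 97.0% over all 6 libraries. Both Dicer KO libraries thus lay above both Dicer WT libraries, on 6 and 4 reads of miR-330-3p. Their exact Clopper-Pearson 95% intervals, 94.1% to 99.0% and 92.9% to 99.2%, hold both Dicer WT shares. miR-670-3p made up 68.5% and 69.7% of Mir670 reads in Dicer WT and from 58.0% to 85.7% in the DGCR8 line. In Dicer KO its share was 53.8% and 50%, on 7 reads and 1 read of miR-670-3p. The exact Clopper-Pearson 95% intervals of these 2 values were 25.1% to 80.8% and 1.26% to 98.7%. The shares of the 3 hairpins use the members' own knock-out reads and carry no test. Intervals cover counting error only.

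Mir193a and Mir365-2 lie on the same strand of chromosome 11, and the paralogs Mir193b and Mir365-1 lie together on chromosome 16 with 4238 bases between them. miR-365-3p can come from either pair, whereas miR-193b-3p marks the chromosome 16 pair. miR-365-3p stood at 28.5 and 33.0 CPM in Dicer WT and 47.9 and 35.1 CPM in Dicer KO (log2 fold change 0.44 ± 0.29, edgeR adjusted p = 0.261). It stood at 23.4 and 26.2 CPM in DGCR8 WT and 11.2 and 16.1 CPM in DGCR8 KO (−0.87 ± 0.30, edgeR adjusted p = 0.0663). It thus lay above its wild type in one knock-out and below it in the other without overlap. The difference between its 2 effects was −1.31 ± 0.41 (edgeR adjusted p = 0.129), in a test that called 2.15% of all miRNAs. miR-193b-3p rose in both knock-outs, from 22.9 and 19.1 CPM to 61.9 and 55.6 CPM in Dicer KO (1.48 ± 0.35, edgeR adjusted p = 0.0116) and from 20.7 and 10.8 CPM to 29.3 and 43.0 CPM in DGCR8 KO (1.18 ± 0.35, edgeR adjusted p = 0.0444). The DGCR8 KO call was the less firm. It ended after thinning (edgeR adjusted p = 0.0575) and without Dicer WT replicate 1 or 2 (0.0562 and 0.0552). Without DGCR8 WT replicate 1 the value was 1.71 (edgeR adjusted p = 0.0716) and without DGCR8 WT replicate 2 it was 0.80 (0.299). Without DGCR8 KO replicate 1 or 2 the adjusted p was 0.117 or 0.166. The Dicer KO call ended without Dicer WT replicate 2 (edgeR adjusted p = 0.0734). In these libraries miR-193a-3p and miR-193b-3p, which share the seed ACUGGCC, lay on opposite sides of the wild type in DGCR8 KO. The 5p strands of Mir365-1 and Mir365-2 and miR-193b-5p had 3 reads or fewer in each library.

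**Figure D3:**
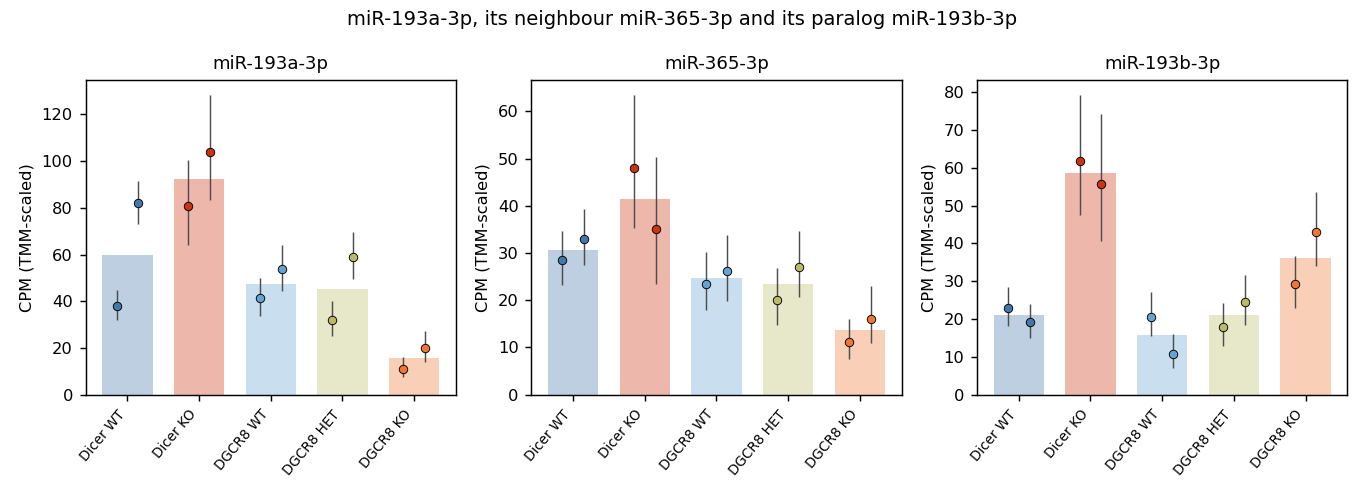
TMM-scaled CPM (vertical axes, from 0) of miR-193a-3p, miR-365-3p and miR-193b-3p in the 5 groups; points are libraries, bars are means of 2 and lines are exact 95% Poisson intervals. In DGCR8 KO miR-193a-3p (11.2 and 19.9 CPM) and miR-365-3p (11.2 and 16.1 CPM) lie below DGCR8 WT, while miR-193b-3p (29.3 and 43.0 CPM) lies above it.

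The strands of miR-9, which Mir9-1 beside Mir3093 encodes together with other genes, fell in both knock-outs. miR-9-5p changed by −0.86 ± 0.17 in Dicer KO (edgeR adjusted p = 0.00515) and by −0.84 ± 0.17 in DGCR8 KO (edgeR adjusted p = 0.0142), and miR-9-3p by −0.88 ± 0.24 and −1.02 ± 0.24 (edgeR adjusted p = 0.0232 and 0.0254). The miR-9-5p call in Dicer KO held in all 18 alternatives. The DGCR8 KO calls of both strands ended on library totals (edgeR adjusted p = 0.0601 and 0.0795) and without DGCR8 WT replicate 1, DGCR8 WT replicate 2, DGCR8 KO replicate 1 or DGCR8 KO replicate 2, with adjusted p up to 0.170 and 0.204, and that of miR-9-3p after thinning (0.0526). The miR-9-3p call in Dicer KO ended on library totals (0.0523), with lines fitted apart (0.0660), without Dicer WT replicate 2 (0.138) and without Dicer KO replicate 2 (0.0787). The table does not separate the genes, so the share made next to Mir3093 is unknown.

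The 3′ ends of the reads were not used to choose the members. An entry's suffix names up to 3 bases added after the mature end, and each was compared here with the 3 bases that follow the mature strand on its RefSeq hairpin. The strands below differ most in this respect and are shown with those following bases in capitals.
miR-330-5p: ucucugggccugugucuuaggcUCU
miR-330-3p: gcaaagcacagggccugcagagaGGU
miR-3085-3p: ucuggcugcuauggcccccucCCA
The table writes U as T. Over 502 names with at least 100 reads, the median share of reads with an addition was 36.7%. miR-193a-3p had 0.270%, miR-670-3p 8.26% and miR-3093-5p 8.48%, while miR-3081-3p had 55.8%, miR-330-3p 62.1%, miR-3093-3p 72.1% and miR-3085-3p 95.4%. The 2 strands of Mir3093 thus lay on opposite sides of the median.

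In miR-3085-3p a single added T made up 80.1% of its 2694 reads, while the hairpin goes on with C. The median share of a single T over the 502 names was 5.96%, and 97.2% of names had a lower share. By library the share was 80.8% and 79.1% in Dicer WT, 79.6% and 82.2% in DGCR8 WT, 82.1% and 78.2% in DGCR8 HET and 81.5% and 75.6% in DGCR8 KO. In Dicer KO it was 82.8% of 29 reads and 63.6% of 22 reads, the latter with an exact Clopper-Pearson 95% interval of 40.7% to 82.8%. The smallest p that 2 libraries a group allow in an exact two-sided permutation test is 0.333, and no test was made of these shares.

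In miR-330-5p a single T made up 78.5% of reads as well, but there the hairpin also goes on with U, and 87.7% of its reads had additions that match the hairpin in full. In miR-330-3p 23.8% of reads had such matching additions and another 32.7% had a matching first base followed by another, the commonest being GT with 122 of 480 reads. In miR-3081-3p and miR-3093-3p 54.9% and 70.0% of reads had an added base that differs from the hairpin, a single T being the commonest. Reads without any addition were 44.2% and 27.9% of these strands. The table does not say whether a read was shortened before bases were added, so a match to the hairpin is a description of letters.

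**Figure D4:**
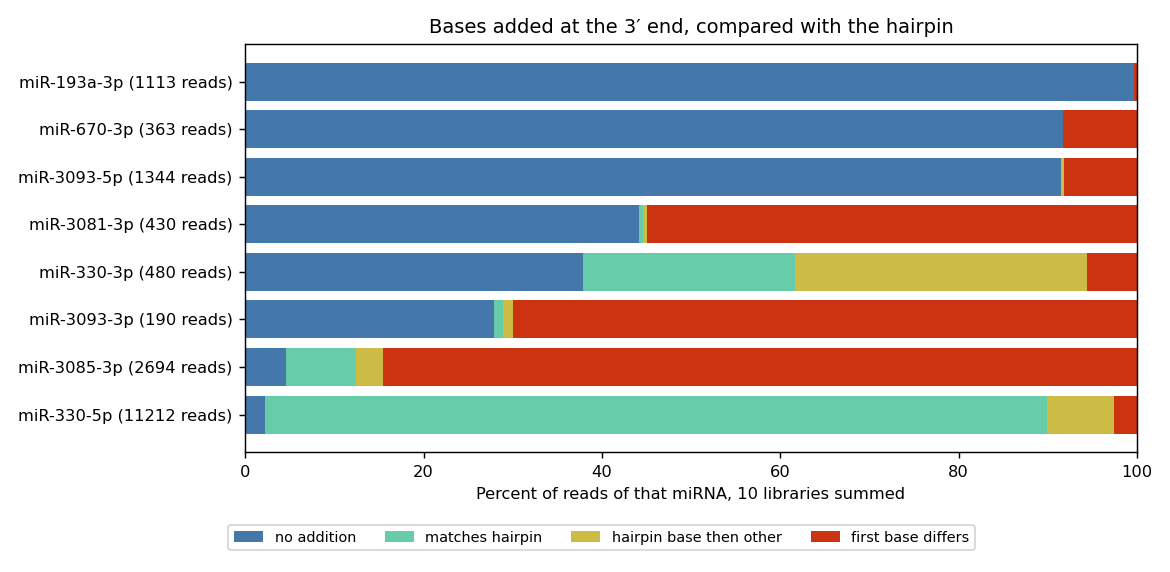
Percent of reads (horizontal axis) of each member and of miR-330-5p by 3′ addition, summed over the 10 libraries: none, matching the hairpin in full, matching in the first base and then differing, or differing from the first base. miR-193a-3p, miR-670-3p and miR-3093-5p are mostly without additions, miR-330-5p mostly matches the hairpin, and miR-3085-3p mostly differs from it.

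Across the 10 libraries the 6 members other than miR-193a-3p varied together, with a Pearson r of TMM log2 CPM from 0.731 to 0.976 for their pairs, highest between the strands of Mir3093. For miR-193a-3p the values ran from −0.255 to 0.161. The pairs share libraries, depth and the genotypes that chose them, so these values are a description. Among 406 non-members with a mean of at least 10 CPM, the nearest to the mean profile of the members were let-7a-5p (r = 0.987), miR-98-5p (0.983), let-7d-5p (0.979), miR-330-5p (0.977) and miR-708-5p (0.975). The closest single profile was miR-330-5p for miR-3093-5p (0.982), miR-93-5p for miR-3093-3p (0.963), miR-671-5p for miR-3081-3p (0.951), let-7g-5p for miR-3085-3p (0.970), miR-1251-5p for miR-330-3p (0.975), miR-125b-1-3p for miR-670-3p (0.9504) and miR-26a-5p for miR-193a-3p (0.969). Likeness in shape is not likeness in size: let-7a-5p lay at −0.65 in Dicer KO and −0.36 in DGCR8 KO.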

How the data were processed

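The deposited table gives raw read counts per entry, made by the authors from TruSeq small RNA libraries of 1000 ng total RNA, per the labels. The submitters' processing notes name Bowtie and GRCm38. No source used here states the mismatch setting, the miRNA annotation or how multiply matching reads were counted. DGCR8 columns differ from the sample descriptions in the number before the index and were matched on line and index.

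Counts were summed over suffixes per mature name, filtered (filterByExpr by group, minimum count 10, total 15; 557 of 1432 names kept), scaled by TMM and fitted over all 10 libraries with edgeR 4.0.16 (quasi-likelihood, R 4.3.3). P-values are two-sided and Benjamini-Hochberg adjusted over the 557 miRNAs. They measure the spread between 2 libraries a group, pooled over 5 groups. DESeq2 1.42.0 was an alternative. The fit was tested on data simulated with changes in Dicer KO only. At an adjusted p below 0.05 it called 45.1% of log2 changes of size 1 and 89.6% of those of size 2. Of unchanged miRNAs it called 1.15%. Lists, members and tests were chosen with earlier results of these data known. Named were the members, their opposite strands, seed sharers, hairpin neighbours, and the profiles with the highest r. The miR-9 strands as neighbours and the comparison with the hairpin were added after the values were seen. Depth is reads assigned to miRNAs.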

Additional observations from a re-analysis of the deposited data

How the results depend on the processing

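The counts and fold changes of members and opposite strands were recomputed in up to 18 alternatives: library totals, RLE factors, no filter, DESeq2, lines fitted apart, a replicate block, entries without additions, thinning to 800623 reads, and each library left out. The fold changes of miR-365-3p, miR-193b-3p and miR-9 and the count against DGCR8 HET were added to these after seeing the data. Arm shares and 3′ additions were given by library, with no other alternative. An arm left with 1 library was assumed to vary like the others. DESeq2 gave no value for the difference of the knock-out effects, and lines fitted apart gave none between lines. In these, 6 members stayed below 0 in Dicer KO and all 7 in DGCR8 KO wherever they were fitted, and 0 members were called in DGCR8 HET or between wild types. In DGCR8 HET that count had little room to move, since with no library left out at most 1.44% of all miRNAs were called. Between wild types the share was 7.54% in the main fit and from 6.59% to 11.3% with no library left out. Leaving out a wild-type library lowered it. Members over 2-fold lower were 5 or 6 in Dicer KO and 4 to 6 in DGCR8 KO. The share of all miRNAs that lay so low ran from 9.87% to 33.8% in Dicer KO and from 2.87% to 13.1% in DGCR8 KO. The fits without additions and after thinning held only 6 of the 7 members. The counts of 5 in Dicer KO came from these fits alone. Against DGCR8 HET, members over 2-fold lower were 5, with 2 on library totals, 3 without additions, 3 thinned and 4 to 5 with a library left out. The share of all miRNAs there ran from 4.67% to 14.3%. The miR-365-3p values kept their direction and stayed uncalled, with the difference of effects from −1.45 to −0.92.

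Of the opposite strands, 1 was called in Dicer KO, 2 with no filter and 1 to 2 with a library left out. In DGCR8 KO 1 was called, 0 on library totals, 0 without additions and 0 to 1 with a library left out. With any DGCR8 WT or DGCR8 KO library left out, that comparison called 0.833% to 1.66% of all miRNAs, so calls were lost across the table.

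Values near 0 changed sign. In DGCR8 HET, without additions miR-330-3p was −0.34 and miR-330-5p 0.0605, thinned miR-670-3p was −0.0671, and leave-one-out ranges were −0.60 to 0.30 for miR-193a-3p, −0.0715 to 0.25 for miR-330-3p and −0.18 to 0.55 for miR-670-3p. For DGCR8 KO against HET miR-670-5p was 0.22 on library totals and −0.60 to 0.46 leaving libraries out. Between wild types, thinned miR-3081-3p was 0.30 and miR-330-5p 0.0147, with leave-one-out ranges of −0.73 to 0.35 for miR-193a-3p, −0.45 to 0.0273 for miR-3081-3p, −0.14 to 0.0192 for miR-330-5p and −0.30 to 0.0987 for miR-670-5p. The difference of the knock-out effects on miR-670-5p ran from −0.22 to 2.05. The cause of these changes was not tested.

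Replicate numbers are shared between groups, but no label ties them to a litter or day, and deviations of same-numbered libraries correlated at −0.0500 to 0.167. With the replicate block 6 members were more than 2-fold lower in each knock-out, 1 opposite strand was called in each, and 168 and 109 miRNAs were called in all, while miR-193b-3p in DGCR8 KO was not called (1.19, edgeR adjusted p = 0.0530). Depth limits the Dicer KO values most, where 5 members had fewer than 10 reads in a library.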

Other observations

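miR-3064-5p, the other miRNA with the seed of miR-3085-3p, had 32 reads in all libraries and did not pass the filter on low counts. Its level was 1.74 ± 0.876 CPM (SD, n = 2) in Dicer WT and 0.998 ± 1.41 CPM in Dicer KO, both under the 2.99 and 3.63 CPM that a count of 0 allows in the Dicer KO libraries, so a difference was not detectable at this depth. In DGCR8 WT it was 1.53 ± 1.03 CPM and in DGCR8 KO 0.461 ± 0.108 CPM.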
